A study of Schizosaccharomyces pombe with 4 samples.

Results

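The phosphate genes pho84 and pho1 of the fission yeast Schizosaccharomyces pombe stand side by side near the right end of chromosome II. They are 2 of the 4606 protein-coding genes tested here. The members were taken by place: the 41 tiling probes of the stretch placed at II 4438340 to 4450399 of assembly ASM294v3, of 40740 probes used on chromosomes I to III. None of the 41 was left out as an outlier. By the placement of annotated genes on the array, 7 of the probes fell in pho84 and 5 in pho1, and the rest lay in ecl3, in non-coding genes or between genes.

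The assay was ChIP-chip of newly deposited histone H3, in which DNA pulled down with T7-tagged H3 (Cy5) is set against whole-cell extract DNA (Cy3, the input) on 60-base probes spaced 300 bp apart. All cells carried the cdc25-22 allele and were held at G2/M for 4 h at 36 °C, after which 1 µM β-estradiol for 2 h let Cre recombinase exchange the HA tag of H3 for T7. The 4 groups, 1 array each, crossed genotype (wt or clr3-CDx2) with tethering state (OFF or ON). For all 4 groups the labels also give growth at 26 °C and 1% formaldehyde. ON cells made TetR-Clr4 from a thiamine-repressible promoter during 20 generations without thiamine, in a strain with the tetO-ade6+ reporter. OFF cells received 5 µg/ml thiamine and 2.5 µg/ml tetracycline, so expression of TetR-Clr4 and the change of medium cannot be told apart. The genotype given for wt names no clr3 allele. What the CDx2 allele changes, where tetO-ade6+ lies, and whether each strain is 1 clone is not stated in the sources used here. Clr4 methylates lysine 9 of H3, the mark of heterochromatin, and Clr3 is a histone deacetylase that works in silencing.

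In fission yeast, phosphate starvation induces a small set of genes that fetch phosphate: pho1 encodes a secreted acid phosphatase, pho84 a high-affinity phosphate transporter of the plasma membrane, and tgp1 a transporter of glycerophosphodiesters. When phosphate is plentiful, transcription of a long non-coding RNA through the promoter holds each of them down: prt2 runs into pho84, prt (annotated as nc-pho1) into pho1, and nc-tgp1 into tgp1. The zinc-finger protein Pho7 binds in the pho1 and tgp1 promoters and activates them. No label mentions phosphate, and no RNA was measured in these samples.

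The value given throughout is the log2 ratio of Cy5 over Cy3 relative to the median of its array, so 0 is the level of a typical probe and 1 is 2-fold above it. Differences between arrays are log2 as well. A high value means more T7-tagged H3 per input DNA. No array measured total H3, so much new H3 and much H3 cannot be told apart, nor can a change in all cells and a larger change in some. Groups had no replicates. The test used both genotypes: limma fitted tethering and genotype together to the 4 arrays, with 1 residual degree of freedom per gene, and pooled the spread over genes. For genes the pooling was complete in this fit of the ratio, so every gene had the same SE of 0.13. In the fit of Cy3 alone and in some alternatives the SE differed between genes. A call is a Benjamini-Hochberg adjusted p below 0.05 over all genes or all probes. No p-value given here measures the spread between replicate arrays or cultures. The members were chosen with earlier results of these data known.

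On assembly ASM294v3 pho84 spans II 4444101 to 4446200 and pho1 spans II 4447506 to 4449053, both on the plus strand, and each holds 1 unbroken reading frame, of 572 and 453 residues. The gap between them is 1305 bp. The prt RNA starts 158 bp past the end of pho84 and 1147 bp before pho1, and its annotation (4446359 to 4448918) covers most of pho1. The prt2 RNA (4442542 to 4445970) starts 1559 bp before pho84 and covers most of it. Most probes in the genes are therefore also probes of these RNAs, and the array does not tell strands apart. To the left lies ecl3 (4441340 to 4441827, minus strand), a small gene of the extender of chronological lifespan family. The window also holds 5 other non-coding genes, SPNCRNA.6614, SPNCRNA.117, SPNCRNA.6615, SPNCRNA.6616 and SPNCRNA.6617. The end of pho1 is 90751 bp from the right end of the chromosome in this assembly.

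The DNA in front of both genes is shown because new H3 was low upstream of both genes in OFF cells. Each sequence runs from 250 bases before to 50 bases after the annotated start, from RefSeq's ASM294v3, on the plus strand: pho84 at chrII:4443851-4444150 and pho1 at chrII:4447256-4447555. The promoter of tgp1, at chrII:352362-352661 on the minus strand, is given for comparison. Capitals mark matches to the Pho7 site (TCG, 4 bases of any kind, TT, 1 base of any kind, AA) or to TATAAA.
pho84: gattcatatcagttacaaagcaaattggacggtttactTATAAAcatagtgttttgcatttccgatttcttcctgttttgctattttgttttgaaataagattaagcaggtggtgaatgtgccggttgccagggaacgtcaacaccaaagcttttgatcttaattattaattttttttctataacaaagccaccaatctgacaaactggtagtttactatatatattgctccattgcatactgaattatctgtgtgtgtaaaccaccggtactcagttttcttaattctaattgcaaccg
pho1: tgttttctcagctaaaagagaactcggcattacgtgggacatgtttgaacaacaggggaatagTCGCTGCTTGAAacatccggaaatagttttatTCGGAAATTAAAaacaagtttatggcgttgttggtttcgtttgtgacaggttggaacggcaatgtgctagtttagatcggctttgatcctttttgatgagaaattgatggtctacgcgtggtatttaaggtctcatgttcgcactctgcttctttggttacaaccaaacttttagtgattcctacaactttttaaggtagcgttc
tgp1: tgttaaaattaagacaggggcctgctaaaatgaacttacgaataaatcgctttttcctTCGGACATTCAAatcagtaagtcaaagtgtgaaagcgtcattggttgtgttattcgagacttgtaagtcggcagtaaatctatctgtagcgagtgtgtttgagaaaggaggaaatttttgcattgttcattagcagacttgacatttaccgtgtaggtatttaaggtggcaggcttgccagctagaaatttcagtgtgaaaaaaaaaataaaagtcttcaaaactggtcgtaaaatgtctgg
The pho1 promoter holds 2 matches to the Pho7 letters, TCGCTGCTTGAA at -187 and TCGGAAATTAAA at -155 from the annotated start, and the tgp1 promoter holds 1, TCGGACATTCAA at -192. Such a match, on either strand, occurs in 6.65% of 5111 windows of the same size at protein-coding genes. No match lies in this window of pho84 or in those of prt2 and prt. The pho84 window holds TATAAA at -212, as 48.1% of such windows do. The exact letters CAGTCACA (a form of the HomolD box, searched on both strands) matched in none of the promoters of pho84, pho1, prt2, prt and tgp1. They matched in 2.68% of all windows. The prt window does hold CAGTCACG, which differs from these letters in the last base only. The search for exact letters therefore cannot show that prt lacks a HomolD box. The Pho7 and TATA letters do not overlap in any of these windows.

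In OFF cells pho1 was among the genes poorest in new H3, and in ON cells it was among the richer ones. The mean over its 5 probes was -0.68 (SD over probes 0.35) in wt OFF, -0.50 (SD 0.19) in clr3-CDx2 OFF, 0.59 (SD 0.43) in wt ON and 0.38 (SD 0.22) in clr3-CDx2 ON. Counted from the highest level, pho1 stood at rank 4566 of 4606 genes in wt OFF and 389 in wt ON. In clr3-CDx2 it moved from rank 4455 to 837. Both ON arrays lay above both OFF arrays, and they did so at each of the 5 probes. Over all genes this order held for 25.8%.

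The difference at pho1 was 2.42-fold in wt (1.27 on the log2 scale, SD over probes 0.15) and 1.84-fold in clr3-CDx2 (0.88, SD 0.33). Over both genotypes pho1 rose by 1.08 in ON (SE 0.13, limma adjusted p = 1.76e-13), the fourth highest value of all genes (rank 4). In the same fit 5.93% of genes rose and 3.69% fell. The call held under each of 13 alternatives that kept all 4 arrays (0.68 to 1.14, largest adjusted p = 0.0203). Leaving out an array requires dropping the genotype term, and then pho1 was not called without the wt OFF array (0.99, adjusted p = 0.113) or without the clr3-CDx2 OFF array (1.16, adjusted p = 0.0587).

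Within pho1 the first probe was the lowest of the gene on every array but clr3-CDx2 ON, where the second was. At 0.164 kb past the annotated start the probe stood at -1.12, -0.68, 0.03 and 0.18 in the 2 OFF arrays (wt, then clr3-CDx2) and the 2 ON arrays (wt, then clr3-CDx2), an order kept below wherever 4 values stand together. At 0.764 kb the values were -0.58, -0.60, 0.87 and 0.56. At 1.364 kb, the last probe of pho1, they were -0.50, -0.63, 0.59 and 0.62. All 5 probes rose by the limma fit over probes, by 0.89 to 1.30, where 4.14% of all probes rose and 2.69% fell. Of the 2 remaining probes, that at 0.464 kb stood at -0.94, -0.34, 0.37 and 0.12, and its difference in clr3-CDx2, 0.46, was the smallest found in pho1. The probe at 1.064 kb stood at -0.25, -0.25, 1.13 and 0.41, the highest of the gene in wt on either array.

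**Figure D1:**
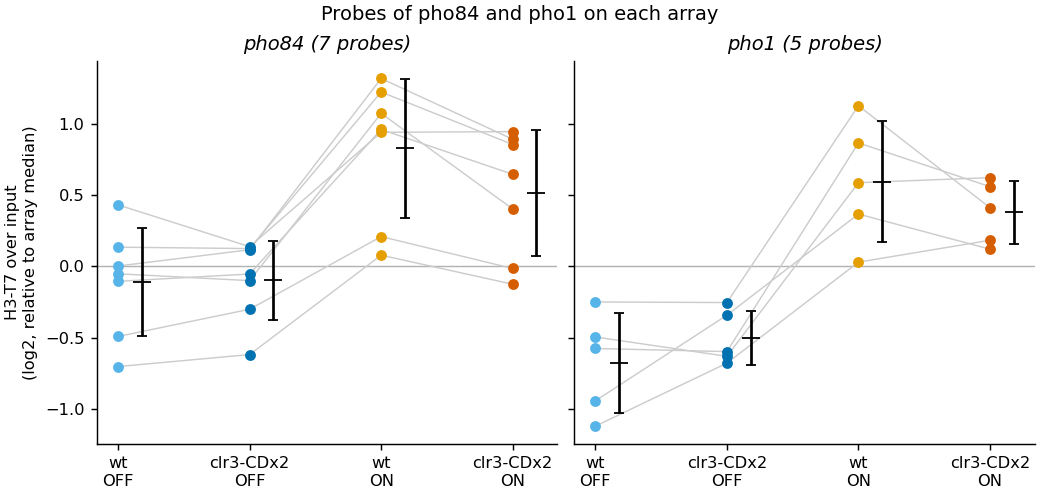
Each point is 1 probe of pho84 (left) or pho1 (right) on 1 array, on the log2 scale of H3-T7 over input relative to the array median; grey lines join a probe across arrays, and the black marks are the mean and the SD over probes. In pho1 every ON point lies above 0 and every OFF point below 0, and in pho84 the OFF means lie at -0.11 and -0.10 and the ON means at 0.83 and 0.51.

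At pho84 the starting point was different, since its OFF level was close to the array median. The mean over its 7 probes was -0.11 (SD over probes 0.38) in wt OFF, -0.10 (SD 0.28) in clr3-CDx2 OFF, 0.83 (SD 0.49) in wt ON and 0.51 (SD 0.44) in clr3-CDx2 ON. Its rank was 3298 in wt OFF and 142 in wt ON, and 3016 and 530 in clr3-CDx2. Here too both ON arrays lay above both OFF arrays at each probe of the gene.

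The difference at pho84 was 1.92-fold in wt (0.94, SD over probes 0.28) and 1.53-fold in clr3-CDx2 (0.61, SD 0.19). Over both genotypes pho84 rose by 0.78 in ON (SE 0.13, limma adjusted p = 4.67e-07, rank 21). Both genes were among the 39 genes (0.847% of those tested) at least 1.5-fold higher in ON in each genotype. The call for pho84 held under the same 13 alternatives (0.55 to 0.96, largest adjusted p = 0.0332). It too was not called without the wt OFF array (0.77, adjusted p = 0.177) or without the clr3-CDx2 OFF array (0.78, adjusted p = 0.164).

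The pho84 probes differed more among themselves in level than in the ON minus OFF difference. At -3.136 kb, the first probe of pho84, the values were -0.70, -0.62, 0.08 and -0.13. At -2.836 kb they were 0.00, 0.12, 1.32 and 0.89. At -1.336 kb, the last probe, they were -0.49, -0.30, 0.21 and -0.02. New H3 was thus lower at both ends of the gene than in its body on every array. The probe at -1.936 kb had the highest wt OFF value of the window, 0.43, and the smallest wt difference of the gene, 0.51. Of the 7 probes 6 rose, by 0.64 to 1.05, and the last one did not pass (0.49, limma adjusted p = 0.11). Over all probes 4.14% rose.

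The body of pho84 resembles other transporter genes in sequence. By blastn, 2 stretches of it match pho841, a related gene near the left end of chromosome II, with 87.7% and 88.4% identity, and weaker matches to pho842 and pho843 reach 77.1% and 73.5%. The 6 probes that rose lie in these stretches, and the last probe does not. All 3 probes of the window whose names carry an f suffix, of unstated meaning, are among the 5 that lie in the pho841 stretches. Without them pho84 is left with 4 probes, and it was still called. Of those, the probes at -3.136, -2.536 and -2.236 kb still lie in matches (72.9%, 87.7% and 88.4% identity). This alternative therefore does not remove the related sequence. Signal from DNA of the related genes on these probes was not tested. In pho1 only 1 probe lies in a match, of 71.2% identity to SPBC21H7.03C.

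Between the genes, where prt starts and the pho1 promoter lies, new H3 formed a trough. Over the 4 probes of the gap the means were -1.02, -0.94, -0.23 and -0.35. The probe at -0.136 kb, beside the pho1 start, stood at -1.28, -1.07, -0.16 and -0.42. In wt OFF its Cy5 level was -0.53 and its Cy3 level 0.74, so its low ratio came with high input. At -1.036 kb, the other end of the gap, Cy5 was -1.52 and Cy3 -0.53 in wt OFF. The ON minus OFF difference over the gap was 0.80 in wt and 0.59 in clr3-CDx2, and the gap stayed below both genes on every array. Of its 4 probes 3 rose, where 4.14% of all probes did. The placement of genes on the array had an SD of 83.3 bp over blocks of this arm. This is less than the probe spacing, so a boundary within 1 probe is not resolved. The blocks left out positions close to the chromosome end, so for pho84 and pho1 the offset was carried over from the rest of the arm.

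The stretch of prt2 ahead of pho84 formed another trough. Over its 6 probes the means were -1.01, -0.86, -0.29 and -0.52, and the lowest probe in wt OFF, at -4.336 kb, stood at -1.39. The differences were 0.72 in wt and 0.34 in clr3-CDx2, and 2 of the 6 probes rose, where 4.14% of all probes did. With normexp background correction these differences shrank to 0.28 and 0.092. Over the whole of prt2, with 12 probes that include most of pho84, the differences were 0.85 and 0.50. Over prt, with 9 probes that include all of pho1, they were 1.06 and 0.75. The troughs and the peak over pho84 thus lay at the same places on the 4 arrays.

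**Figure D2:**
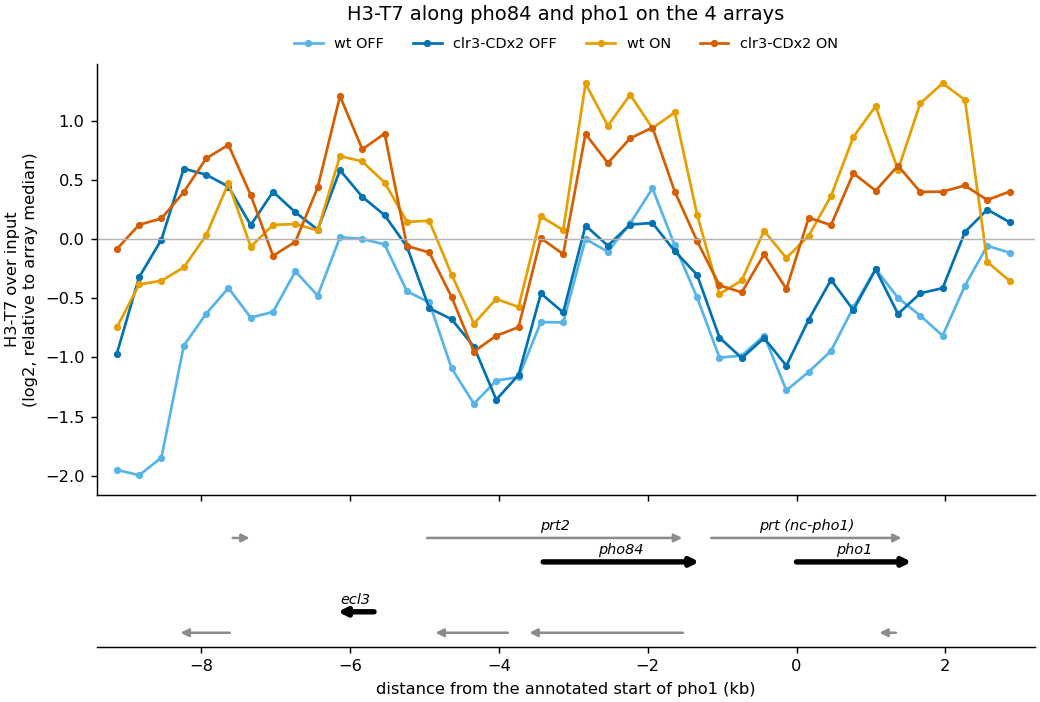
H3-T7 over input (log2, relative to the array median) on the 4 arrays, each point 1 probe, against the distance of the probe's midpoint from the annotated start of pho1; below, protein-coding genes in black and non-coding RNA genes in grey, with arrowheads for strand. Troughs lie ahead of pho84 and between pho84 and pho1 on every array, and over pho84, pho1 and the gap between them both ON arrays lie above both OFF arrays.

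Around ecl3 the ON arrays were higher as well. Its 2 probes averaged 0.01, 0.47, 0.68 and 0.99, with differences of 0.67 and 0.51 (1.05 and 0.76 with normexp). Having 2 probes, ecl3 was below the minimum of 3 for the test of genes. Of its probes 1 rose, and of the 2 probes between ecl3 and prt2 another 1 rose, where 4.14% of all probes did. Among the other non-coding genes, SPNCRNA.6616, antisense to pho84 with 7 probes, differed by 0.97 in wt and 0.64 in clr3-CDx2. SPNCRNA.6615, antisense to the start of prt2 with 3 probes, differed by 0.72 and 0.23, and SPNCRNA.6614, left of ecl3 with 3 probes, by 0.74 and 0.10. Their values are those of the DNA they share with prt2 and pho84 where they overlap. No probe midpoint lay in SPNCRNA.117 or SPNCRNA.6617.

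Past the end of pho1 the wt difference was largest and then dropped, to come back outside the window. The probes at 1.664, 1.964 and 2.264 kb from the pho1 start differed by 1.80, 2.14 and 1.57 in wt, and no other probe of the window reached the first or second of these values. In clr3-CDx2 they differed by 0.86, 0.82 and 0.39. At 2.564 kb the difference was -0.14 in wt and 0.08 in clr3-CDx2, and at 2.864 kb -0.24 and 0.26. In wt ON the level thus went from 1.18 to -0.19 within 300 bp, while in wt OFF it went from -0.39 to -0.06. In clr3-CDx2 ON the levels of these 5 probes stayed between 0.33 and 0.45. Right of the window the wt difference was 1.498 at 3.764 kb and 1.22 at 4.064 kb, where wt OFF was low (-1.54 and -1.69), and both probes rose. Inside the window the last probe that rose lay 717 bp past the annotated end of pho1.

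Along the window 25 of the 41 probes rose in ON and none fell (34 and 0 at an unadjusted p below 0.05), where 4.14% of all probes rose and 2.69% fell. Both ON arrays lay above both OFF arrays at 30 probes (73.2%), an order found at 26.9% of all probes. The window mean difference was 0.90 (SD over probes 0.47) in wt and 0.46 (SD 0.36) in clr3-CDx2. At least 1.5-fold higher in ON were 34 probes in wt, where 7.62% of all probes were, and 15 in clr3-CDx2, where 5.68% were. The count of probes that rose depended on the starting signal and on the fit. With normexp background correction limma called 0 window probes (19 at an unadjusted p below 0.05), and without the genotype term it called 2.

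The rule sets the edges of the window, and the difference did not start at the left one. The outermost probe inside the left edge differed by 1.20 in wt and 0.88 in clr3-CDx2, and the probe just outside by 0.62 and 0.77. The outermost probe inside the right edge differed by -0.24 and 0.26, and the one just outside by 0.26 and 0.28. In the 6 kb to the left 7 of 19 probes rose, and in the 6 kb to the right 6 of 18, against 4.14% of all probes.

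The channels were read apart because the ON and OFF arrays had been processed differently. Per the file headers, the Cy5 signal was detrended on the OFF arrays and not on the ON arrays. At pho1 the Cy5 level, relative to the array median, was -0.97, -0.79, 0.07 and 0.04. The Cy3 level at pho1 was -0.30, -0.30, -0.51 and -0.34. At pho1 the Cy5 level thus stood higher in ON in both genotypes, and the input level was lower in wt ON than on the other arrays. At pho84 the Cy5 level was -0.14, -0.09, 0.85 and 0.53, and the input level stayed between -0.04 and 0.03.

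In Cy5 alone pho1 rose by 0.93 (limma adjusted p = 1.78e-11), in a fit where 4.28% of genes rose and 3.28% fell. In Cy3 alone it stood at -0.12 (adjusted p = 0.999). At pho84 Cy5 rose by 0.80 (adjusted p = 2.25e-08), and Cy3 stood at 0.04 (adjusted p = 0.999). In the Cy3 fit 0% of genes rose and 0.0217% fell (90 and 54 genes at an unadjusted p below 0.05). Pooling over genes was only partial for Cy3, with an SE of 0.068 at pho1 and 0.061 at pho84, while it was complete for Cy5. The p-values of the channels are therefore not directly comparable. With the detrending undone, an alternative chosen after seeing the data, pho1 rose by 0.99 (adjusted p = 0.0148) and pho84 by 0.73 (adjusted p = 0.0309).

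**Figure D3:**
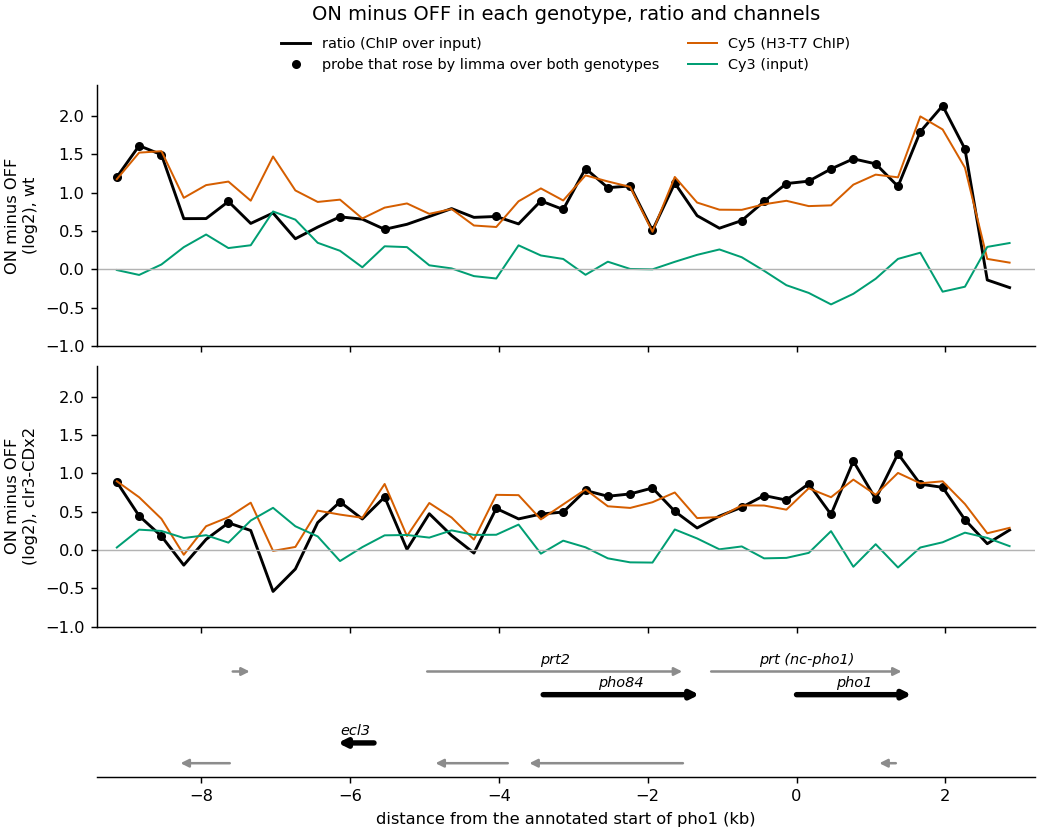
ON minus OFF (log2) at each probe against the distance from the annotated start of pho1, in wt (top) and clr3-CDx2 (middle), for the ratio (black), Cy5 (orange) and Cy3 (green); dots mark the 25 probes that rose by limma over both genotypes. The ratio mostly follows Cy5, which has window means of 0.98 in wt and 0.54 in clr3-CDx2, while Cy3 averages 0.10 in both. The Cy3 mean joins opposite shifts, since in wt it is 0.31 left of ecl3 and -0.21 in pho1. In wt the difference drops at 2.564 kb.

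The clr3-CDx2 allele made no called difference at either member. At pho1 the genotype effect was -0.02 (SE 0.13, limma adjusted p = 0.998), and at pho84 it was -0.15 (SE 0.13, adjusted p = 0.877). In this fit 0.89% of genes rose and 0.282% fell in clr3-CDx2. Of all probes, 7.62% in wt and 5.68% in clr3-CDx2 were at least 1.5-fold higher in ON. The mean ON minus OFF difference over the window was smaller in clr3-CDx2 (0.46) than in wt (0.90). This difference of differences equals the residual of the fit, so the design has no test for it.

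The genotypes differed at the sides of the window. In the 10 probes left of ecl3 the means were -0.98, 0.11, -0.10 and 0.27, so wt OFF stood apart from the other arrays. Their ON minus OFF difference was 0.88 in wt and 0.16 in clr3-CDx2, and 0.39 and 0.23 with normexp. The first 3 of these probes were the lowest of the window in wt OFF, at -1.95, -2.00 and -1.85, and stood at -0.97, -0.32 and -0.0029 in clr3-CDx2 OFF. Of the 10 probes 5 were higher in clr3-CDx2 by limma, by 0.82 to 1.19, where 1.41% of all probes rose and 0.152% fell. No other probe of the window was called by genotype (11 probes of the window passed at an unadjusted p below 0.05, 8 of them left of ecl3). In the 6 kb to the right of the window 13 of 18 probes were called, with mean differences of 1.16 in OFF and 0.95 in ON, and in the 6 kb to the left 1 of 19.

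**Figure D4:**
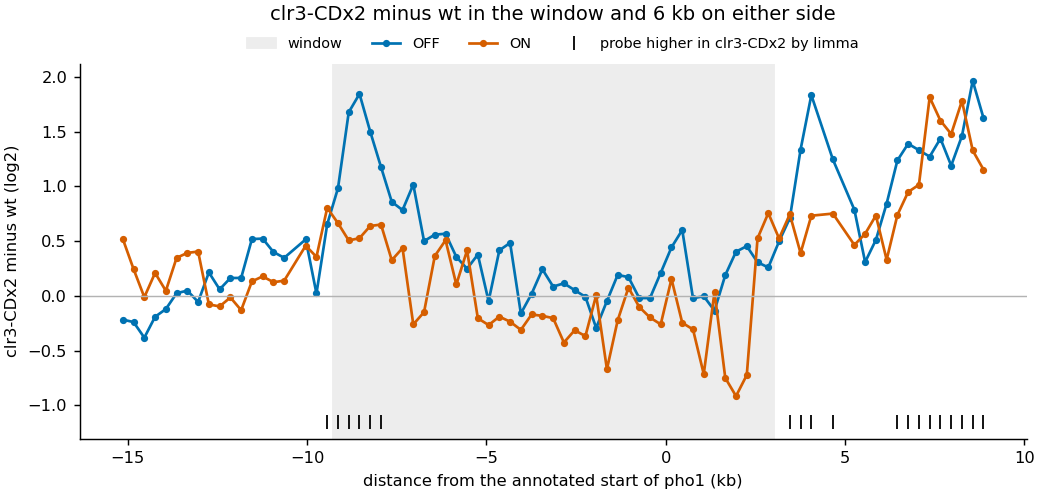
clr3-CDx2 minus wt (log2) in OFF (blue) and ON (orange) at each probe of the window (grey) and of 6 kb on either side, against the distance from the annotated start of pho1; ticks mark probes higher in clr3-CDx2 by limma. The called probes lie at the left edge of the window and right of it, and those from ecl3 to pho1 carry no tick.

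Other genes of phosphate handling were taken from a list of 15, of which 14 were tested, pho1 and pho84 included. The list was chosen with earlier results of these data known, so its counts describe it and are no independent support. Of these 6 rose and none fell, where 5.93% of all genes rose and 3.69% fell, and their median was 0.34 against 0.01 over all genes. Of the 12 without pho1 and pho84, 4 rose, with a median of 0.30. The 4 were SPBPB2B2.06C, pho841, pho842 and pho4. Of these, SPBPB2B2.06C lies at II 4469018 to 4471164, right of the window and near the same chromosome end, so it is not apart from the members by place. In S. pombe pho4 encodes an acid phosphatase repressed by thiamine, and SPBPB2B2.06C is annotated as a phosphoprotein phosphatase. Both pho841 and pho842 are annotated as inorganic phosphate transporters. They share sequence with pho84 (up to 88.4% and 77.1% identity), and signal shared between their probes and those of pho84 was not tested.

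Their effects over both genotypes were smaller than those of both members, though in wt the difference at pho842 (0.96) was above that of pho84, as was that at SPBPB2B2.06C in clr3-CDx2 (0.71). At SPBPB2B2.06C the levels were 0.09, 0.52, 0.43 and 1.23, and it rose by 0.52 (limma adjusted p = 0.002). At pho841 they were 0.33, 0.08, 0.74 and 0.61, and it rose by 0.47 (adjusted p = 0.00774). Both ON arrays lay above both OFF arrays at pho841, and at SPBPB2B2.06C wt ON lay below clr3-CDx2 OFF. At pho4 the levels were 0.45, 0.41, 0.76 and 0.97, and it rose by 0.44 (adjusted p = 0.0154). At pho4 Cy5 differed by -0.17 in wt and 0.26 in clr3-CDx2, and Cy3 by -0.47 and -0.28. Neither channel passed alone at pho4 (Cy5 0.04, limma adjusted p = 0.914; Cy3 -0.37, adjusted p = 0.669). At pho842 the levels were -0.36, -0.09, 0.60 and -0.14, so it stood higher in wt ON alone (combined effect 0.46, adjusted p = 0.00974). Each of these 4 calls was lost under 5 to 10 of the 17 alternatives run for it, whereas those of pho1 and pho84 were lost under 2.

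The third of the genes known to be held down by a non-coding RNA did not pass. At tgp1 the levels were 0.34, 0.19, 0.70 and 0.53, with differences of 0.36 in wt and 0.35 in clr3-CDx2, and the combined effect was 0.36 (SE 0.13, limma adjusted p = 0.0628). It passed under 3 of 17 alternatives. In OFF cells tgp1 stood above the array median, where pho1 stood below it.

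The regulators and enzymes of the list stood lower. The kinase gene csk1 stood at 0.32 and pqr1, which encodes a protein that limits phosphate uptake, at 0.28. The inositol pyrophosphate kinase gene asp1 stood at 0.13 and the glycerophosphodiesterase gene gde1 at 0.12. The diphosphatase gene aps1 stood at -0.05, pho7 itself at -0.09 and vtc4, for polyphosphate synthesis, at -0.21. None of these 7 passed (adjusted p of 0.105 to 0.884). By genotype 1 of the 14 was called, SPBPB2B2.06C, which was higher in clr3-CDx2 by 0.61.

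A second list held 11 genes for RNA turnover and 3′ end processing factors known at pho genes, of which 10 were tested. Only seb1, which encodes an RNA-binding protein of transcription termination, rose (0.49, limma adjusted p = 0.00452), and none fell. A count of 1 in 10 is near the 5.93% of all genes that rose. The median of the list was 0.02, near that of all genes.

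**Figure D5:**
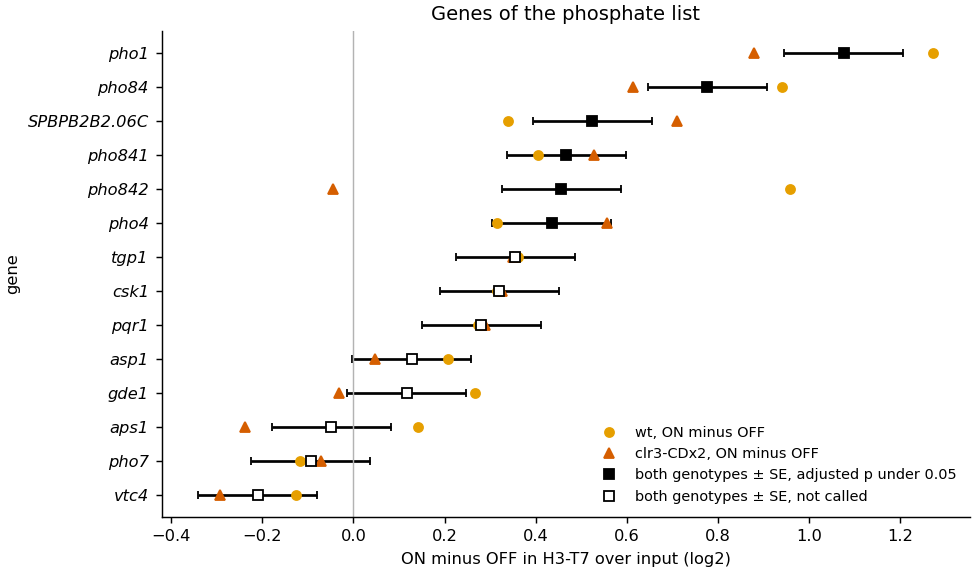
ON minus OFF (log2) for the 14 tested genes of the phosphate list, with wt (circles), clr3-CDx2 (triangles) and the limma estimate over both genotypes with its SE (squares, filled where the adjusted p was below 0.05). The squares of pho1 (1.08) and pho84 (0.78) lie to the right of the others, and pho842 is split between 0.96 in wt and -0.04 in clr3-CDx2.

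The profiles of the 2 members over the 4 arrays were set against those of all genes. With each gene centred on its own mean, the Euclidean distance between pho1 and pho84 was 0.33 log2 units over 4 arrays, and 10 genes were closer to pho1 than pho84 was, and 61 genes were closer to pho84 than pho1 was. The closest to pho1 outside the window was SPBC530.07C, annotated as a TENA/THI family protein (distance 0.0147), with -0.48, -0.28, 0.80 and 0.59. It was followed by lsd90 (0.158), SPAC8E11.10 (sorbose reductase, 0.219), met17 (homocysteine synthase, 0.224) and sua1 (sulfate adenylyltransferase, 0.231).

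The genes closest to pho84 were others. They were ssa2 (an Hsp70 chaperone, distance 0.0869), yak3 (of an aldose reductase family, 0.111), pma1 (the plasma membrane proton pump, 0.115), pop7 (a subunit of RNase P, 0.145) and SPACUNK4.17 (of an NAD-binding dehydrogenase family, 0.149). At pma1 the levels were -0.43, -0.39, 0.65 and 0.20. No gene is among the 5 closest of both members. With 4 arrays, these distances describe the profiles and nothing more.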

How the data were processed

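The authors scanned and extracted the arrays with Agilent Feature Extraction, per the submitters' processing notes, in version 12.0.3.1 per the file headers. The deposited scanner files hold processed Cy5 and Cy3 intensity, background-subtracted and dye-normalized. Per the file headers, Cy3 was detrended on all 4 arrays and Cy5 on the OFF arrays. The deposited value table equals log2 of Cy5 over Cy3 intensity within 1e-06 at 100% of non-control spots. Deposited flags of another kind, 0 or 1, mark outlier spots, and the 531 spots marked on any array were left out of 41551. The array medians were 7066 to 13925 units in Cy3 and 4442 to 7688 in Cy5, against local backgrounds of 37 to 43 and 54 to 64. At most 5 spots of an array were not well above background and none was saturated.

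Log2 ratios were centred on the array median. No source used here names the array's build. Genes of ASM294v3 were placed on it by matching input signal to GC content, per chromosome arm. On the right arm of II the offset was 1660 bp (correlation 0.23 against 0.049 elsewhere, 1520 to 1740 bp over blocks). Positions close to the chromosome end were left out of the match. A gene is the mean of at least 3 probes. Limma 3.58.1 fitted tethering and genotype. The planned normexp alternative used median spot signals, since the files hold no mean signals. Other alternatives covered scaling, loess, probe choice, placement and the fit. In all, 0 columns of other samples were present. Array number limits precision. The p-values rest on the residual of the fit, which is how far ON minus OFF differed between the genotypes, pooled over genes or probes. They do not measure the spread between replicate arrays or cultures, of which there were none.

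Named were all genes of the window, the phosphate list, called members of the RNA list, and the 5 genes closest to each member. The members and lists were chosen with earlier results of these data known. On the phosphate list vtc1 was not matched by name, and on the RNA list erh1 had too few probes.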

Additional observations from a re-analysis of the deposited data

Results flagged for a closer look

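The effect of the clr3-CDx2 allele had opposite signs in the OFF and ON states at both members and over the window, and these differences between states were not tested. At pho1 clr3-CDx2 stood above wt by 0.176 in OFF, while in ON clr3-CDx2 minus wt was -0.216. At pho84 the corresponding values were 0.0128 and -0.315. Over the 41 probes of the window they were 0.398 and -0.042. Each value compares 1 array with 1 array. The OFF value of the window came mainly from the 10 probes left of ecl3, where it was 1.09, and over the 27 probes from the start of prt2 to the right edge it was 0.14 in OFF and -0.23 in ON.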

How the results depend on the processing

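The alternatives without 1 array, and those without a genotype term, change the estimate of spread, and leaving out an array also leaves a lone array in 1 state, assumed to vary like the rest. No paired analysis was possible because each group is 1 array and no replicate numbers pair the samples. The rise of pho1 and of pho84 was called under 15 of 17 alternatives each; the deposited value table, equal to the values used, is not counted. Without 1 array and without the genotype term, pho1 ranged from 0.97 to 1.18 and pho84 from 0.62 to 0.93. Neither was called without wt OFF (0.99 and 0.77, adjusted p = 0.113 and 0.177) or without clr3-CDx2 OFF (1.16 and 0.78, adjusted p = 0.0587 and 0.164). Leaving out in turn the OFF arrays of wt and clr3-CDx2 and then their ON arrays, limma called 0, 0, 49 and 110 genes that rose, 0, 0, 16 and 60 that fell (without an OFF array, 303 or more and 184 or more at an unadjusted p below 0.05), and 2, 7, 2 and 11 window probes that rose. Against 273 and 170 genes, limma called 84 and 26 with normexp, 154 and 138 with equal MAD, 170 and 92 with medians over probes, 57 and 20 without the genotype term, and 70 and 23 without detrending. Window probes that rose numbered 0 with normexp (19 at an unadjusted p below 0.05) and 2 without the genotype term. The window difference in wt was 0.75 with normexp, 0.82 with loess and 0.78 with medians. Clr3-CDx2 minus wt over the window was 0.25 in OFF with normexp, and 0.26 in OFF and -0.18 in ON with medians. Signs turned for the genotype effect at pho1 with equal MAD (0.0157), for aps1 with loess (0.0051) and without the clr3-CDx2 OFF array (0.10), for gde1 without the wt ON array (-0.0051) and for pho842 with no placement offset (-0.19); none of these was called. The cause was not tested.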
